A study of Mus musculus with 11 samples.

Results

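Transcripts of 8 genes of the folate cycle and the glycine cleavage system were followed in mouse liver: Gldc, Amt, Gcsh, Shmt1, Shmt2, Mthfd1, Mthfd1l and Aldh1l1. They were taken by name, 8 of the 36788 gene identifiers in the expression table, and the set was chosen by the measured difference between the treatment groups, FSH against saline, which was already known. The comparison of those groups is therefore described for these genes and carries no test.

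The livers came from female mice older than 12 weeks, wild-type C57BL/6 by the labels while the study's methods describe a mixed background that includes C57BL/6J, all of them ovariectomized (OVX) and fed a high-fat diet. One group of 5 (FSH 1, 2, 3, 4 and 6) received injections of follicle-stimulating hormone (FSH), the pituitary hormone that acts on the ovary, and the control group of 6 (saline 1 to 6, labelled OVX) received saline. The question was what the hormone changes in the liver when no ovary is present. Both groups therefore lack ovarian hormones, and animals with ovaries or on a standard diet were not part of the comparison. Each library held bulk RNA from whole liver, in which fewer cells of a type and less RNA per cell cannot be told apart. The labels do not say that the libraries came from separate mice, so p-values measure only the spread between these libraries, which may be technical. Within a group every pair of libraries differed by more than counting noise, with a mean chi-square per gene of 11.35 to 51.41.

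Folate carries single carbon units between amino acids and the reactions that make purines, thymidylate and methionine. In mitochondria the glycine cleavage system breaks glycine down to carbon dioxide and ammonia and passes its remaining carbon to tetrahydrofolate, and liver is a main site of this reaction. Serine hydroxymethyltransferases interconvert serine and glycine on the same carrier, and the other enzymes change the oxidation state of the carried carbon, release it as formate or burn it off as carbon dioxide.

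Expression was measured as CPM, the reads on a gene scaled to a common total of reads on all genes in each library (counts per 1000000). The reads on genes ranged from 11410596 to 19909327 in the FSH livers and from 10801891 to 16077442 in the saline livers, and 3 reads correspond to 0.151 to 0.278 CPM. Principal component 1, with 31% of the variance, separated the groups. Liver identity was clear from the 6 hepatocyte markers, whose summed CPM was 92040 to 111600 with FSH and 85520 to 114100 with saline. Differences are given as log2 differences, FSH minus saline, between group means of log2(CPM + 0.5). Genes averaging 0.5 CPM or more over the 11 livers were kept, 12733 in all, and their median log2 difference was 0.024.

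All 8 genes passed that filter. In direction 6 were higher and 2 lower with FSH, with a median log2 difference of 0.184. Of the 8, 4 passed an adjusted p of 0.05 in the fit over all genes (2 higher, 2 lower), where 10.6% of all genes did (6.19% higher, 4.41% lower), and 2 also exceeded a 2-fold change, where 1.83% of all genes did. The groups did not overlap for 5 of the 8 (4 higher, 1 lower), against 6.67% of all genes (3.95% higher, 2.72% lower). Since the genes were named with this contrast known, nothing is read from these counts.

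The glycine cleavage complex held the lower members. Gldc encodes the P protein, the glycine decarboxylase that starts the reaction, and lies on the minus strand of chromosome 19 (GRCm38, chr19:30098447-30175429). Its level was 64.2, 58.8, 67.9, 68.8 and 72.3 CPM in FSH 1, 2, 3, 4 and 6, and 169.0, 217.5, 176.5, 161.1, 182.7 and 231.4 CPM in saline 1 to 6. Every FSH liver was far below every saline liver, and the FSH livers lay closer together. The means were 66.4 ± 5.13 (SD, n = 5) and 189.7 ± 28.2 CPM (SD, n = 6), 2.86-fold higher with saline, and the log2 difference was -1.50 (SE 0.10).

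Amt encodes the T protein, the aminomethyltransferase that hands the glycine carbon to tetrahydrofolate (chr9:108296853-108302302, plus strand). The FSH livers 1, 2, 3, 4 and 6 had 13.3, 21.1, 10.7, 13.1 and 15.4 CPM, and saline 1 to 6 had 24.6, 25.8, 22.7, 20.01, 22.7 and 32.9 CPM. The groups overlapped through a single liver, FSH 2, which stood above saline 4. The means were 14.7 ± 3.95 (SD, n = 5) and 24.8 ± 4.43 CPM (SD, n = 6), and the log2 difference was -0.75 (SE 0.16).

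Gcsh encodes the H protein, the lipoylated shuttle that carries the intermediate between the other subunits (chr8:116981810-116993537, minus strand). It had 122.9, 113.6, 115.5, 112.4 and 111.1 CPM in FSH 1, 2, 3, 4 and 6 and 111.1, 97.8, 106.0, 107.0, 101.5 and 109.7 CPM in saline 1 to 6. The lowest FSH liver and the highest saline liver were level to the first decimal, so the groups only just did not overlap. The log2 difference was 0.13 (SE 0.07), with means of 115.1 ± 4.65 (SD, n = 5) and 105.5 ± 5.04 CPM (SD, n = 6).

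Transcripts of the 3 subunits stood in different proportions to each other in the groups. Within a liver, the CPM ratio of Gldc to Gcsh was 0.578 ± 0.0575 with FSH (SD, n = 5, range 0.518 to 0.651) and 1.80 ± 0.303 with saline (SD, n = 6, range 1.51 to 2.23). The ratio of Gldc to Amt was 4.78 ± 1.30 with FSH (SD, n = 5, range 2.79 to 6.37) and 7.71 ± 0.622 with saline (SD, n = 6, range 6.88 to 8.45), so Gldc was also the lower of the pair relative to the controls. Dld, which encodes the L protein shared with other dehydrogenase complexes, had a mean of 121.2 CPM with FSH and 111.3 CPM with saline and did not pass the test (log2 difference 0.13, limma adjusted p = 0.479). Of the 4 genes for Dld and for lipoylation of the H protein 0 passed in limma or edgeR, and 0 had an unadjusted p under 0.05.

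**Figure D1:**
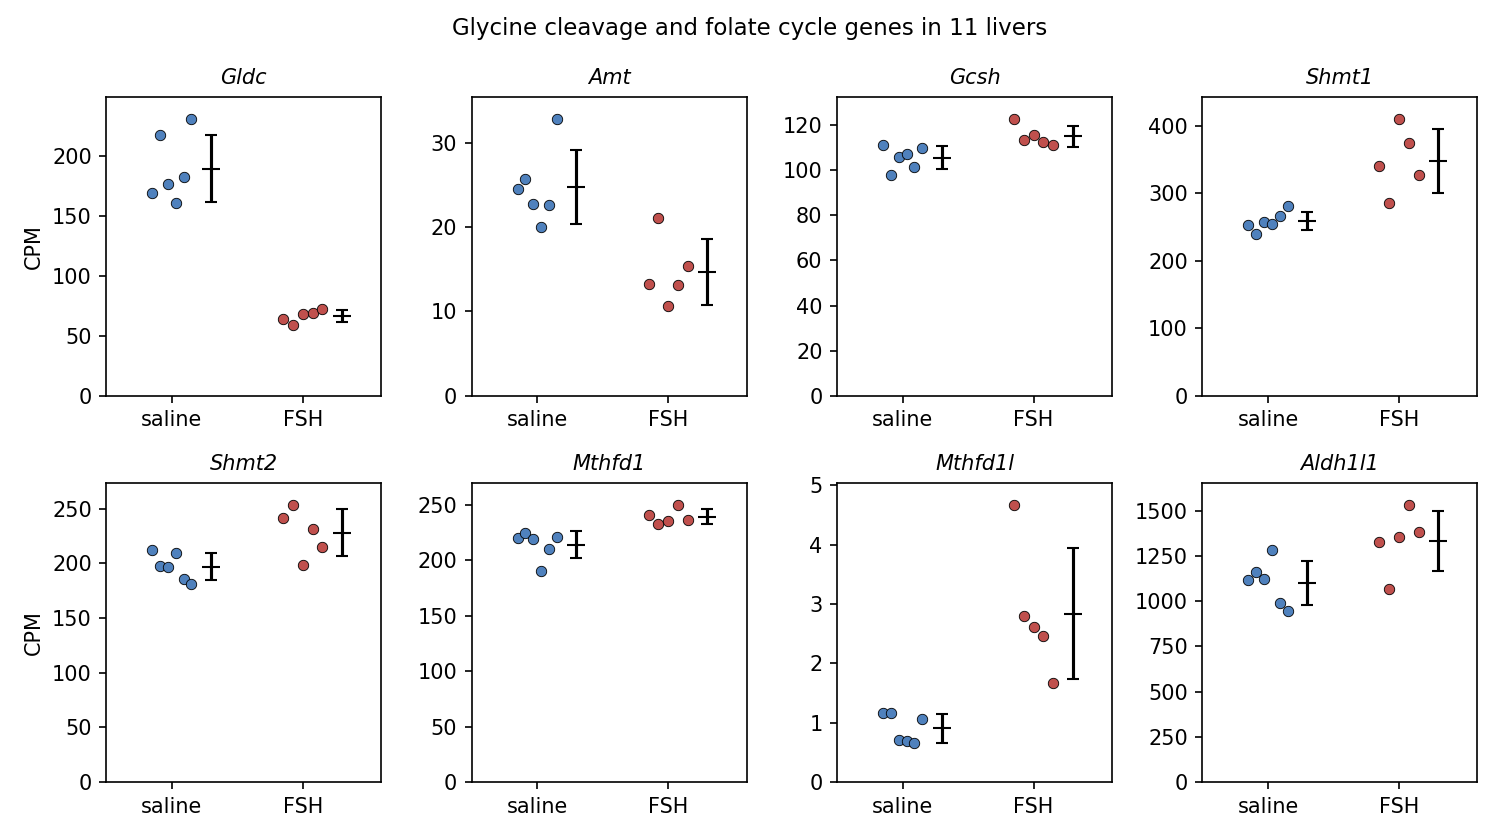
CPM of each of the 8 genes in every liver, saline in blue and FSH in red, with the mean and SD beside the points and a linear axis from 0 in each panel. Gldc lies at 58.8 to 72.3 CPM with FSH and 161.1 to 231.4 CPM with saline, while Mthfd1l is the gene with the fewest reads and the widest FSH spread relative to its mean.

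Shmt1 and Shmt2 encode the cytosolic and the mitochondrial serine hydroxymethyltransferase. Shmt1 (chr11:60788104-60811718, minus strand) had 340.1, 286.1, 410.4, 374.3 and 326.9 CPM in FSH 1, 2, 3, 4 and 6 and 252.6, 240.0, 256.6, 254.8, 266.7 and 281.0 CPM in saline 1 to 6. All FSH livers were above all saline livers, with FSH 2 nearest to the controls. The means were 347.6 ± 47.2 (SD, n = 5) and 258.6 ± 13.9 CPM (SD, n = 6), a ratio of 1.34 and a log2 difference of 0.42 (SE 0.09). Its exons overlap those of Smcr8 on the opposite strand, which had 9.68 to 16.7 CPM with FSH and 12.1 to 19.3 CPM with saline.

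Shmt2 (chr10:127517123-127522444, minus strand) had 241.5, 253.3, 198.8, 231.4 and 214.5 CPM in FSH 1, 2, 3, 4 and 6 and 211.9, 197.8, 196.3, 208.9, 185.1 and 181.0 CPM in saline 1 to 6. The groups overlapped, FSH 3 lying among the saline livers. Means were 227.9 ± 21.6 (SD, n = 5) and 196.8 ± 12.4 CPM (SD, n = 6), with a log2 difference of 0.21 (SE 0.08). Ndufa4l2, whose exons overlap it on the opposite strand, had 1.70 to 2.39 CPM with FSH and 1.06 to 2.43 CPM with saline. The CPM ratio of Shmt1 to Shmt2 within a liver overlapped between the groups, at 1.13 to 2.06 with FSH and 1.19 to 1.55 with saline. The CPM ratio of Shmt2 to Gldc within a liver was 3.47 ± 0.579 with FSH (SD, n = 5) and 1.06 ± 0.199 with saline (SD, n = 6). The ranges did not overlap (2.93 to 4.31 and 0.782 to 1.30). Such CPM ratios are not scaled for gene length and are compared only between the groups.

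Mthfd1 and Mthfd1l make and use formyltetrahydrofolate. The trifunctional cytosolic protein Mthfd1 (chr12:76255298-76319803, plus strand) recharges folate with formate, and the mitochondrial protein Mthfd1l releases formate for export. Mthfd1 had 241.1, 233.3, 235.5, 250.1 and 236.5 CPM in FSH 1, 2, 3, 4 and 6 and 219.9, 224.4, 219.2, 190.7, 210.2 and 221.2 CPM in saline 1 to 6. The groups did not overlap, though the gap between them was narrow. Means were 239.3 ± 6.69 (SD, n = 5) and 214.3 ± 12.5 CPM (SD, n = 6), with a log2 difference of 0.16 (SE 0.07).

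Mthfd1l (chr10:3973118-4167081, plus strand) was the least abundant of the 8, with 19 to 93 reads in the FSH livers and 7 to 17 in the saline livers. It had 4.67, 2.80, 2.61, 2.45 and 1.67 CPM in FSH 1, 2, 3, 4 and 6 and 1.16, 1.16, 0.700, 0.685, 0.648 and 1.06 CPM in saline 1 to 6. All FSH livers were above all saline livers, and FSH 1 stood well above the rest. Means were 2.84 ± 1.11 (SD, n = 5) and 0.903 ± 0.250 CPM (SD, n = 6), 3.15-fold higher with FSH. The log2 difference was 1.21 (SE 0.21) with 0.5 CPM added, an addition that shrinks differences at so low a level, 0.98 with 1 CPM added, which is no longer past a 2-fold change, and 1.63 when edgeR was fitted to the reads. The CPM ratio of Mthfd1 to Mthfd1l was 51.6 to 142 with FSH and 189 to 324 with saline.

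Aldh1l1 encodes the cytosolic formyltetrahydrofolate dehydrogenase, which oxidizes the carried carbon to carbon dioxide and is abundant in hepatocytes (chr6:90486427-90600203, plus strand). It had 1331, 1071, 1357, 1534 and 1383 CPM in FSH 1, 2, 3, 4 and 6 and 1116, 1162, 1124, 1283, 991.5 and 946.0 CPM in saline 1 to 6. The groups overlapped, since FSH 2 lay below 4 of the saline livers. Means were 1335 ± 168 (SD, n = 5) and 1104 ± 121 CPM (SD, n = 6), with a log2 difference of 0.27 (SE 0.11). The antisense transcript Gm15756, which shares exon sequence with it, had 0.0876 to 0.566 CPM with FSH and 0.0622 to 0.685 CPM with saline.

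**Figure D2:**
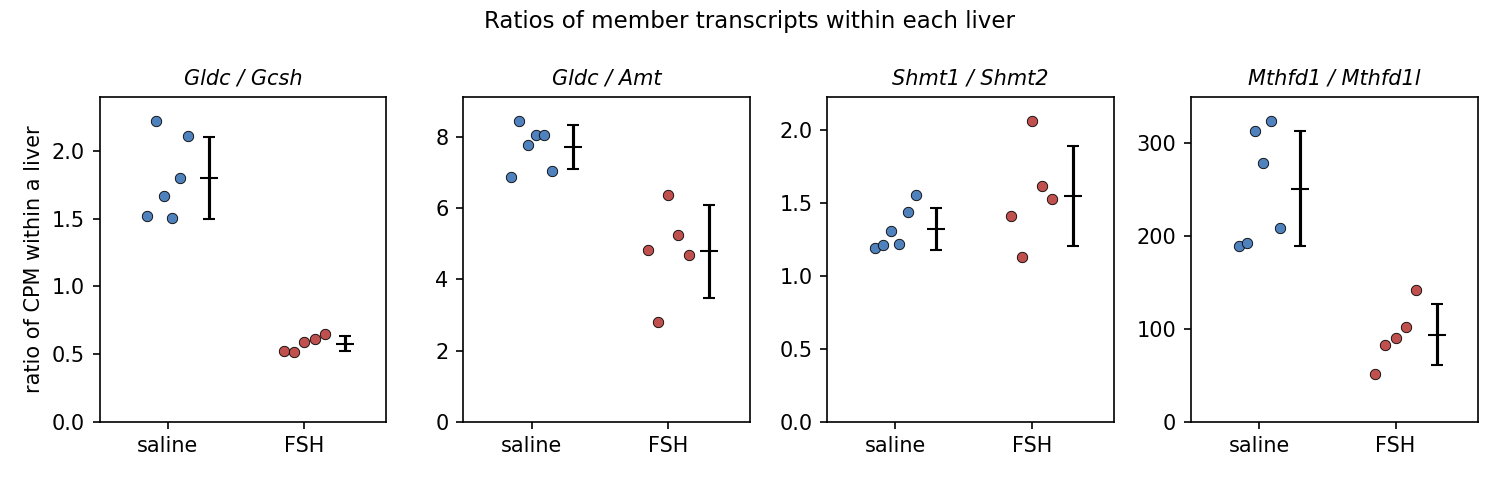
Ratios of CPM between pairs of the 8 genes within each liver, saline in blue and FSH in red, with mean and SD, each axis linear from 0. The ratios of Gldc to Gcsh, Gldc to Amt and Mthfd1 to Mthfd1l do not overlap between the groups, and Shmt1 to Shmt2 does (1.13 to 2.06 with FSH, 1.19 to 1.55 with saline).

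FSH 2 recurred at the edge of its group. Among the FSH livers it had the lowest CPM of Gldc, Shmt1, Mthfd1 and Aldh1l1 and the highest of Amt and Shmt2. Without FSH 2 the log2 differences were -1.46 for Gldc, -0.89 for Amt, 0.48 for Shmt1, 0.17 for Shmt2 and 0.35 for Aldh1l1.

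The promoters of Gldc and Mthfd1l are printed because their log2 differences were the only ones of the 8 beyond 1 in size with 0.5 CPM added, in opposite directions. Each is the 250 bases before the RefSeq transcription start (GRCm38.p6), Gldc at chr19:30175442-30175691 on the minus strand and Mthfd1l at chr10:3972825-3973074 on the plus strand, written 5′ to 3′ with the GC box in capitals.
Gldc: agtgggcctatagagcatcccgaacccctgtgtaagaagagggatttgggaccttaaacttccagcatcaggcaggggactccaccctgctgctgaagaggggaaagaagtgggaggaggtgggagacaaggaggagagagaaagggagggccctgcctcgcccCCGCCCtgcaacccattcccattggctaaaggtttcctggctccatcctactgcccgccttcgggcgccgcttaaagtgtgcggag
Mthfd1l: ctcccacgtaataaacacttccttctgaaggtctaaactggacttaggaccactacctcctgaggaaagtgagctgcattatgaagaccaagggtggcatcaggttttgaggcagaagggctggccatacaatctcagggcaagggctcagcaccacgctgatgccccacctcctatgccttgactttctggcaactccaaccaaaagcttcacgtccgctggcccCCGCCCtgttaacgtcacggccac
The GC box (GGGCGG, searched on both strands, here as CCGCCC) started at position -86 in Gldc and -24 in Mthfd1l, counted from the start site. It occurred in 7 of the 8 promoters, Shmt2 lacking it, and in 32.7% of all 32851 RefSeq promoters. AGGTCA, a nuclear receptor half-site, was found in 3 of the 8 (Amt, Mthfd1 and Aldh1l1) and in 14.0% of all promoters. The E-box CACGTG, the D-box TTATGTAA, the glucocorticoid receptor half-site AGAACA and the composite TGATGCAA were found in 0 of the 8, against 6.02%, 0.819%, 16.1% and 0.791% of all promoters. These are matches of letters within these 250 bases only. The windows of Shmt1 (chr11:60811266-60811515) and Aldh1l1 (chr6:90550543-90550792) lie wholly inside the gene spans given above.

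Levels can be set side by side between genes only per length, here as CPM per kilobase of merged exons. In saline livers Aldh1l1 was highest at 244.4 ± 26.9 (SD, n = 6), followed by Gcsh at 66.8 ± 3.19, Shmt1 at 66.6 ± 3.58, Shmt2 at 63.3 ± 3.98, Mthfd1 at 48.2 ± 2.81, Gldc at 31.2 ± 4.63, Amt at 10.2 ± 1.82 and Mthfd1l at 0.204 ± 0.0564. Gcsh, Shmt1 and Shmt2 lay within 1 SD of their neighbours in that order. In FSH livers the order was Aldh1l1 at 295.7 ± 37.1 (SD, n = 5), Shmt1 at 89.5 ± 12.2, Shmt2 at 73.3 ± 6.95, Gcsh at 72.9 ± 2.95, Mthfd1 at 53.9 ± 1.51, Gldc at 10.9 ± 0.842, Amt at 6.04 ± 1.62 and Mthfd1l at 0.640 ± 0.251. Shmt2 and Gcsh were again level within their SD.

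The gene whose pattern over the 11 livers was nearest to each member was found as the root mean square distance of centred log2(CPM + 0.5) among genes averaging 5 CPM or more, a measure that includes the difference between the groups. Nearest to Gldc were Cry1 (0.185), a clock repressor, and Pnkd (0.187). Nearest to Amt were Lrp5 and Acnat1 (both 0.139), and nearest to Mthfd1l were Pmvk (0.180), an enzyme of the mevalonate pathway, and Acpp (0.204). Gcsh was nearest to Atp5c1 (0.0448) and Mst1 (0.0628), Mthfd1 to Setd3 (0.0505) and Fgfr1op2 (0.0572), and Shmt2 to Nrp1 (0.0640) and Thoc3 (0.0643). Shmt1 was nearest to Blvra (0.0816) and Cd59a (0.104), and Aldh1l1 to Pecr (0.0942) and Bet1l (0.0948). Among the 8 themselves Gcsh and Mthfd1 were closest (0.0911), Gldc and Amt were 0.461 apart, and Gldc and Mthfd1l were farthest apart (1.39).

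The rest of the pathway was read from a list of 47 genes arranged by role, of which 42 passed the filter. Dao and Tdh had no reads in any liver, and Folr1, Aldh1l2 and Phgdh were below the filter. Of the 42, 3 passed a limma adjusted p of 0.05, 1 higher (Gcat) and 2 lower (Bhmt and Fpgs), and 0 of them exceeded a 2-fold change. In direction 21 were higher and 21 lower.

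Bhmt, betaine-homocysteine methyltransferase, remethylates homocysteine without folate and yields dimethylglycine, a precursor of glycine (chr13:93616675-93637961, minus strand). It had 1180, 1501, 1216, 1782 and 1031 CPM in FSH 1, 2, 3, 4 and 6 and 2332, 2471, 2657, 2535, 2239 and 2347 CPM in saline 1 to 6. The groups did not overlap, and Bhmt fell by 0.88 on the log2 scale (SE 0.13, limma adjusted p = 0.000492). Fpgs, which adds the glutamate tail that keeps folate in the cell, had 122.1, 146.2, 118.3, 126.1 and 147.4 CPM in FSH 1, 2, 3, 4 and 6 and 196.1, 212.5, 171.2, 241.7, 152.0 and 180.9 CPM in saline 1 to 6. It also did not overlap and fell by 0.53 (SE 0.11, limma adjusted p = 0.00791). Its exons overlap those of Eng on the opposite strand, at 43.2 to 60.9 CPM with FSH and 45.4 to 57.4 CPM with saline.

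Gcat, the mitochondrial ligase that ends a route from threonine to glycine, had 128.2, 126.3, 123.0, 136.2 and 113.1 CPM in FSH 1, 2, 3, 4 and 6 and 116.6, 93.4, 103.7, 110.3, 81.9 and 90.5 CPM in saline 1 to 6. The groups overlapped, FSH 6 lying below saline 1. The means were 125.3 ± 8.41 (SD, n = 5) and 99.4 ± 13.1 CPM (SD, n = 6). Gcat passed by little (log2 difference 0.34, SE 0.10, limma adjusted p = 0.0355) and did not pass in 12 of 16 alternative fits, 8 of which left out a single liver (FSH 1, 2, 3 or 4, or saline 2, 3, 5 or 6), with adjusted p from 0.0506 to 0.0917.

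In the other roles 0 genes passed in limma or in edgeR, while 1 gene each in the interconversion and the use of one-carbon units, serine metabolism and histidine breakdown and 0 of the carriers had an unadjusted p under 0.05. Ftcd, which passes a carbon from histidine breakdown to folate, was the most abundant of the 4 tested genes of interconversion, at 347.1 CPM with FSH and 315.0 CPM with saline (log2 difference 0.14, limma adjusted p = 0.371). Among the 6 genes that use the carried carbon, the most abundant was Gart, of purine synthesis, at 32.2 CPM with FSH and 33.4 CPM with saline (log2 difference -0.05, limma adjusted p = 0.747). Sds, a serine dehydratase, was the most abundant of the 5 tested genes of serine synthesis and breakdown and varied widely, at 212.7 ± 58.8 CPM with FSH (SD, n = 5) and 258.6 ± 117 CPM with saline (SD, n = 6; limma adjusted p = 0.709). Sfxn1, a mitochondrial serine carrier, led the 4 carriers at 89.5 and 93.8 CPM (limma adjusted p = 0.903). Uroc1 led the 3 genes of histidine breakdown, at 354.5 CPM in both groups.

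**Figure D3:**
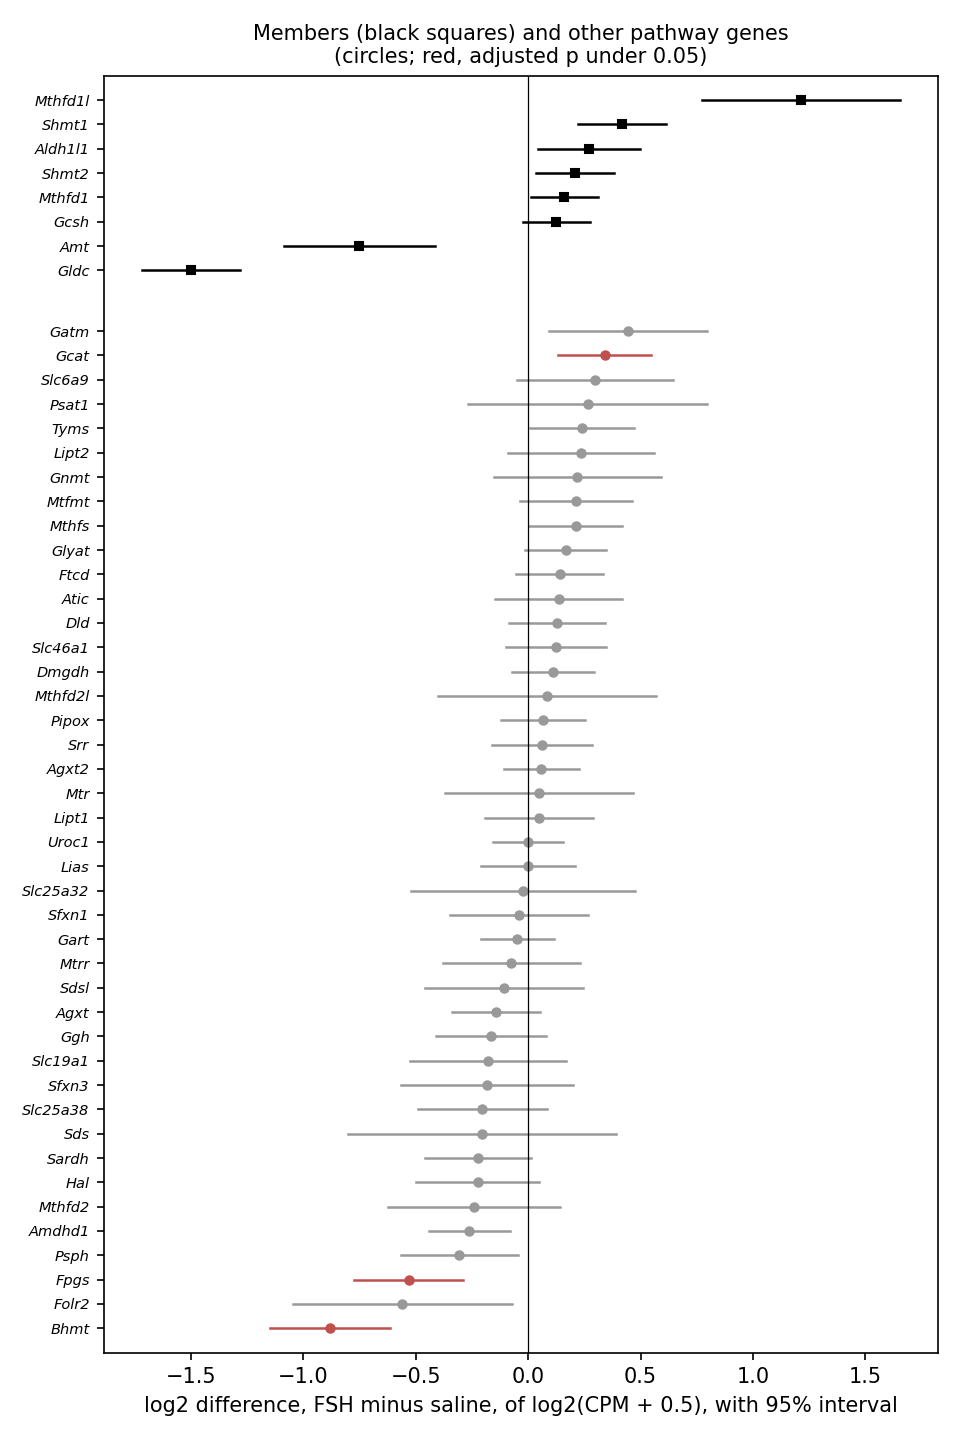
Log2 difference, FSH minus saline, of log2(CPM + 0.5) with its 95% interval for the 8 genes (black squares, described only) and 42 tested genes of the rest of the pathway (circles, red past an adjusted p of 0.05). Gldc at -1.50 lies farthest to the left, Mthfd1l at 1.21 farthest to the right, and most circles lie near 0.

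**Figure D4:**
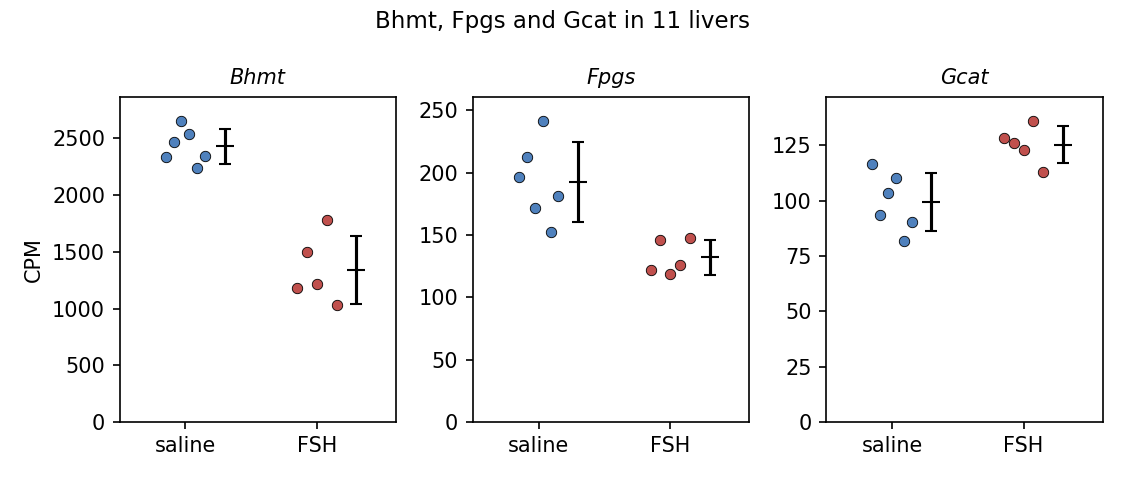
CPM per liver of Bhmt, Fpgs and Gcat, saline in blue and FSH in red, with mean and SD and linear axes from 0. Every FSH liver lies below every saline liver for Bhmt and Fpgs, while Gcat overlaps between the groups.

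Of 3 transcription factors known to act on genes of these pathways, 0 passed in limma or edgeR and 0 had an unadjusted p under 0.05. Atf4, the transcription factor of the amino acid response, had 97.3 CPM with FSH and 89.4 CPM with saline (log2 difference 0.12, limma adjusted p = 0.612), Myc had 4.61 and 3.12 CPM (0.39, limma adjusted p = 0.444) and Nfe2l2 had 57.9 and 50.4 CPM (0.20, limma adjusted p = 0.390). Of 8 targets of Atf4 outside the pathway, 7 were tested, 2 of them higher in direction and 5 lower. Of the 7, 3 passed (42.9%), where 10.6% of all genes did, and all 3 were lower, where 4.41% of all genes were called lower. The list was chosen with earlier results of these data known, so nothing is read from this share. Trib3, a pseudokinase, fell by 1.19 (SE 0.21, limma adjusted p = 0.00243), with 2.37 to 3.02 CPM with FSH and 4.20 to 12.7 CPM with saline. Chac1, an enzyme that breaks down glutathione, fell by 1.14 (SE 0.23, limma adjusted p = 0.00543), and its groups overlapped. Both had few reads, 27 to 167 a liver for Trib3 and 26 to 140 for Chac1. Atf5, a transcription factor, fell by 0.44 (SE 0.11, limma adjusted p = 0.0219). Without FSH 1 or without FSH 4 Atf5 did not pass (adjusted p = 0.0723 and 0.055).

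Markers of the cell types a liver can hold were read as summed CPM, with FSH first and saline second. The 6 Kupffer cell or macrophage markers were all lower in direction and 1 passed (Cd68, log2 difference -0.78, limma adjusted p = 0.0118), with sums of 69.4 to 185.8 and 114.2 to 222.9 CPM. Of the 8 periportal hepatocyte markers 2 rose (Ass1 and Gls2) and 1 fell (Cyp2f2), with sums of 7625 to 9669 and 6600 to 12600 CPM. Sds and Hal belong to both the periportal and the pathway list. Of the 5 endothelial markers 1 passed (Lyve1, -0.63, limma adjusted p = 0.0121), with sums of 108.5 to 161.8 and 125.6 to 150.7 CPM. Of the 4 cholangiocyte markers 1 passed (Krt7, 0.69, limma adjusted p = 0.00731, groups not overlapping), with sums of 45.1 to 65.6 and 33.7 to 51.1 CPM. The adipocyte sum, 4.21 to 8.72 and 8.52 to 14.3 CPM, was almost all Fabp4 (-0.64, limma adjusted p = 0.0342), while Lep was at 0 and Adipoq and Plin1 reached at most 0.0926 and 0.129 CPM in any liver. In the other lists 0 markers passed in limma or edgeR, with an unadjusted p under 0.05 for 2 pericentral and 1 dividing-cell marker and for 0 of the rest. The pericentral sums were 8059 to 11280 and 8456 to 12170 CPM and the dividing-cell sums 7.27 to 15.9 and 7.14 to 12.1 CPM. All 5 stellate cell markers were lower in direction, with sums of 69.1 to 144.1 and 95.9 to 153.4 CPM. Erythroid markers summed to 334.7 to 579.0 and 297.3 to 747.9 CPM, lymphocyte markers to 2.80 to 7.23 and 3.40 to 9.44 CPM, and neutrophil markers, with Ly6g at 0, to 0.526 to 1.81 and 0.664 to 2.41 CPM. Pancreatic acinar markers, almost all of it Cela1, summed to 10.5 to 15.2 and 7.86 to 13.7 CPM. The clock genes Dbp and Arntl lay apart between the groups, Dbp lying at 42.6 to 121.0 CPM with FSH and 3.40 to 4.95 CPM with saline and Arntl at 2.06 to 5.08 and 13.2 to 22.8 CPM. The hour of collection is not given in the sources used here. The part of these cell types and of the clock genes in the differences above was not tested.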

How the data were processed

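Whole-liver RNA was sequenced in 5 FSH and 6 saline libraries as paired reads (HiSeq). The labels mention papain digestion of the liver and the design text a column kit. According to the submitters' processing notes, FastQC 0.11.2, Trim Galore 0.3.3, cutadapt, STAR and RSEM were used with mm10. The annotation release and the use of strand are not given in the sources used here, so reads from overlapping genes on opposite strands may not be separated. The deposited table, made by the authors, holds CPM per Ensembl gene for each of 11 libraries. All values were whole multiples of the value of 1 read (100% within 0.01 read, a tolerance widened in proportion above 10000 reads), which gave back the reads. Of 36788 identifiers 35555 were named from GENCODE M21 (GRCm38).

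Genes averaging 0.5 CPM or more were fitted with limma 3.58.1 in R 4.3.3 on log2(CPM + 0.5) with an intensity trend and no covariates, and p-values were Benjamini-Hochberg adjusted over the 12733 genes tested. Calls used an adjusted p of 0.05, with an absolute log2 difference over 1 for a 2-fold change. The script was tested on simulated data. Some genes of the pathway list are not reported here, so its share of called genes is not set against that of all genes. The 8 members and the lists were chosen with earlier results of these data known. Named were the 8 members, pathway genes and Atf4 targets past an adjusted p of 0.05, the most abundant gene of a role with none, Atf4, Myc, Nfe2l2 and the 2 nearest genes of each member. Clock genes, overlapping genes, single cell type markers and library FSH 2 were singled out after their values were seen. Alternatives were a pseudocount of 1 CPM, no filter, median-of-ratios scaling, a replicate block, each liver left out, and edgeR 4.0.16 on the recovered reads. Depth is that of reads on genes, and read counts carry counting error only.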

Additional observations from a re-analysis of the deposited data

How the results depend on the processing

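The 8 members kept their direction in all 128 alternative values, and 1 moved by more than the replicate spread, Mthfd1l under edgeR (1.63). Since the members were chosen by this difference in the same livers, their kept direction was largely fixed beforehand. With 1350 genes past an adjusted p of 0.05, leaving out 1 liver gave 804 to 1659 genes, the lowest without FSH 1, and 198 to 273 past both thresholds (233 with all livers). With the recovered reads edgeR called 1435 and 311. Without a filter 1013 and 212 genes passed, with a pseudocount of 1 CPM 1359 and 189, and with median-of-ratios scaling 1379 and 233. The number of other pathway genes called higher, 1 (Gcat), was 0 without a filter, 0 with median-of-ratios scaling and 0 with edgeR, and 0 to 2 when 1 liver was left out, with 2 without FSH 6. The number called lower, 2, was 2 to 3, and the Atf4 targets called lower were 2 to 4.

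The correlation of deviations of same-numbered livers was 0.0651, 0.356, 0.0193, 0.137 and -0.0662 for numbers 1, 2, 3, 4 and 6. Only numbers 2 and 4 correlated best with their own partner. These values do not settle whether equal replicate numbers pair the livers. A fit with the replicate number as a block, over 5 pairs and so without saline 5, called 1214 genes and 252 past both thresholds, 0 other pathway genes higher, and lost Gcat (adjusted p = 0.0515) and Atf5 (adjusted p = 0.056). Gcat was also lost without saline 5 and no block (adjusted p = 0.0607). Mthfd1l rests on 7 to 93 reads a liver, and its log2 difference was 0.98 with a pseudocount of 1 CPM and 1.04 to 1.35 when 1 liver was left out.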
